A study of Mus musculus with 2 samples.

Results

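Neutrophils carry ready-made proteins in granules of several kinds, and the genes described here encode proteins linked to the secondary, or specific, granules. The 8 genes were Ngp, Ltf, Camp, Lcn2, Retnlg, Wfdc21, Chil1 and Lyz2, taken as a named list from the 32285 genes listed in both libraries. They were followed in single myeloid cells from colorectal polyps. Cells sorted for CD11b and CD11c were pooled from 5 WT mice into 1 library and from 4 Clec7a-/- mice into the other, both given azoxymethane (AOM) and 3 cycles of 1% dextran sulfate sodium (DSS) in the drinking water, with analysis at 16 weeks and an age of 26 weeks in the sample labels. The strain was C57BL/6J, and the Clec7a-/- mice, which lack Dectin-1 in every cell, had been backcrossed to it for 9 generations. With 1 library per genotype no test was possible, mice cannot be told apart within a library, and genotype and library cannot be told apart, so each interval given here covers counting error only.

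Granule proteins are made in a fixed order while neutrophils mature in bone marrow. The genes of the primary granules are read at the promyelocyte stage, those of the secondary granules at the myelocyte and metamyelocyte stage, and those of tertiary granules and secretory vesicles later. Mature neutrophils in tissue therefore hold many granule proteins whose messages have already declined, although some of these genes can be induced again. Ltf (lactoferrin) and Lcn2 (lipocalin 2) withhold iron from microbes, the latter by binding siderophores. Camp (the cathelicidin precursor) yields an antimicrobial peptide, and Ngp (neutrophilic granule protein) belongs to the cystatin superfamily. Retnlg is a resistin-like secreted protein, Wfdc21 has a whey acidic protein domain, and Chil1 is a chitinase-like protein without enzyme activity. Lyz2 encodes lysozyme M, which monocytes and macrophages also make, so it was kept apart from the sum of the other 7 genes.

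All 8 genes were protein coding in the GENCODE M21 annotation of GRCm38, the mouse build that the submitters' notes call mm10. Of these, 3 were on chromosome 9. Camp (ENSMUSG00000038357) spanned positions 109847379 to 109849617 on the minus strand. Ngp (ENSMUSG00000032484) spanned 110419747 to 110423012 and Ltf (ENSMUSG00000032496) spanned 111019271 to 111042767, both on the plus strand. The gap from Camp to Ngp was 570.129 kb and that from Ngp to Ltf was 596.258 kb. Lcn2 (ENSMUSG00000026822) was on chromosome 2 at 32384633 to 32388252 (minus strand), and Retnlg (ENSMUSG00000022651) on chromosome 16 at 48872621 to 48874496 (plus strand). Wfdc21 (ENSMUSG00000051748) was on chromosome 11 at 83746940 to 83752642 (plus strand), and Chil1 (ENSMUSG00000064246) on chromosome 1 at 134182176 to 134190181 (plus strand). Lyz2 (ENSMUSG00000069516) was on chromosome 10 at 117277331 to 117282321 (minus strand), and the models held from 3 exons in Wfdc21 to 17 in Ltf.

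Granule genes of this group are known targets of C/EBP-family factors, C/EBP epsilon among them, and of PU.1. The 250 bases before the RefSeq start of each gene (GRCm38.p6) were therefore searched on both strands for the letters TTGCNNAA, a C/EBP-type site, and GAGGAA, a PU.1-type site. A RefSeq entry was matched for 7 of the 8 genes, all except Wfdc21. TTGCNNAA occurred in 4 of the 7, with 2 matches in Ngp and 1 each in Ltf, Lcn2 and Retnlg, against 9.56% of 32851 promoters. GAGGAA occurred in Ltf and Lcn2, against 23.3% of all promoters. Ngp, the member that differed most between the libraries among those with 100 or more UMIs, and Ltf held the same letters TTGGGCAA, and Retnlg is shown beside them as the most abundant of the 7 transcripts. In the sequences below, written 5′ to 3′ in the direction of the gene, capitals mark the matches. They cover chr9:110419558-110419807 (Ngp, plus strand), chr9:111019042-111019291 (Ltf, plus strand) and chr16:48872358-48872607 (Retnlg, plus strand).
Ngp: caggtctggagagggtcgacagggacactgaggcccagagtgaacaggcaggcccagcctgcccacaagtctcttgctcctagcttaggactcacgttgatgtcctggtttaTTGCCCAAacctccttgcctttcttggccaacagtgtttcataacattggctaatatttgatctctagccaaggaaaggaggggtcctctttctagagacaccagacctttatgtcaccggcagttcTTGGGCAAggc
Ltf: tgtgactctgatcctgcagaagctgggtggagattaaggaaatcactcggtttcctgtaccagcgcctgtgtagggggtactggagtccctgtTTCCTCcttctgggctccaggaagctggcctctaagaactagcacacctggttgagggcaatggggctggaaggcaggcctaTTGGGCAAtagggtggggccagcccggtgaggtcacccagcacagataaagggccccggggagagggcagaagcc
Retnlg: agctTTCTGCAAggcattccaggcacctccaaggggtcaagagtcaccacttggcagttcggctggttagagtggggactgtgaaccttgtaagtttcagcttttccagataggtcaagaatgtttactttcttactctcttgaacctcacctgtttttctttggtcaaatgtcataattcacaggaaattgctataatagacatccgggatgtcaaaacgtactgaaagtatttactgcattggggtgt
The GENCODE start lay 61 bases before the RefSeq start for Ngp, 21 for Ltf, 161 for Camp and 513 for Lcn2. The whole Lcn2 window, with both of its matches, therefore lay inside the GENCODE gene. The match nearest to a RefSeq start was the one in Ngp that began 11 bases before it, and this match also lay inside the GENCODE gene. These matches describe letters only, and binding was not measured.

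The libraries held 15869215 UMIs over 3467 barcodes (WT) and 11808230 UMIs over 3080 barcodes (Clec7a-/-). After the cell filter of the study (from 200 to 4000 genes, no more than 5% mitochondrial UMIs) 2696 and 1999 cells remained, with medians of 3412.5 and 2671 UMIs. Itgam or Itgax, which encode the sorting markers CD11b and CD11c, had a UMI in 83.4% of the kept WT cells and 69.1% of the kept Clec7a-/- cells. The libraries shared 17 barcodes, of which 10 were kept in each library, and those held 31 and 14 UMIs of the 7 genes. Classes were named from marker genes after clustering without the granule genes, which gave 15 clusters.

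Clusters 2 and 3 were neutrophil-like. Of 10 neutrophil markers, which included S100a8, S100a9, Csf3r, Cxcr2 and Ly6g, 9 were at least 2-fold above all other cells in cluster 2 and 8 in cluster 3. The class held 679 WT cells (25.2% of kept cells) and 403 Clec7a-/- cells (20.2%), but its make-up and depth differed between the libraries. Cluster 2 held 485 of the WT cells and 78 of the Clec7a-/- cells, whereas cluster 3 held 194 and 325, which was 28.6% and 80.6% of the class. Median depth was 2500 UMIs in WT and 1049 in Clec7a-/- neutrophil-like cells. It was 2807 and 1785 UMIs in cluster 2, and 1181 and 919 in cluster 3, whose top 10 genes by fold included none of the 10 markers. Of 3 eosinophil markers Ccr3 and Siglecf were also at least 2-fold up in cluster 3, while Epx, which encodes eosinophil peroxidase, had 0 UMIs in the class. In cluster 3 the list had 41 UMIs in WT (158 CPM, in 29 cells) and 11 in Clec7a-/- (33.2 CPM, in 11 cells). A further cluster carried neutrophil and monocyte markers together (274 and 70 cells) and is called mixed.

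Levels are given as counts scaled to a total of 1000000 UMIs of the same class and library (CPM). The sum of the 7 genes was 10066 CPM in WT and 5185 CPM in Clec7a-/- neutrophil-like cells (log2 ratio -0.96, 95% interval -1.02 to -0.90). This class-wide ratio did not hold in every depth band or in both clusters. It stayed below 0 in cells with 1000 to 2000 UMIs (-0.76, -0.90 to -0.61), where much of the WT sum lay in few cells, as described below. Among cells with 2000 to 4000 UMIs (438 WT and 34 Clec7a-/- cells) the sum was 10681 CPM in WT and 13663 CPM in Clec7a-/- cells (log2 ratio 0.36, 0.27 to 0.44). That Clec7a-/- level rested on a few cells, since single cells held 157, 130, 126, 121 and 104 of its 1116 UMIs. The interval does not cover such unevenness between cells. In cluster 3 the sum was 3480 and 3685 CPM (0.08, -0.04 to 0.21), and in cluster 2 it was 11216 and 8597 CPM (-0.38, -0.47 to -0.30). Within cluster 2 the sign depended on depth. The ratio was -2.44 in its cells with 1000 to 2000 UMIs (10 WT and 48 Clec7a-/-). It was 0.41 (0.32 to 0.51) in its cells with 2000 to 4000 UMIs (401 and 26). Single WT barcodes rich in Ngp held 132 and 123 of the 904 WT UMIs of the sum in cluster 3. The near-equal levels in cluster 3 therefore depended on them. Without the 52 WT and 13 Clec7a-/- cells that had a UMI of an eosinophil marker, the ratio was -0.96 in the class and 0.03 in cluster 3. Depth and cluster make-up moved with the genotype label, and their part in the lower class-wide sum was not tested. Of the members, Ngp alone had a lower level in Clec7a-/- cells in both clusters and also in both depth bands above 1000 UMIs, with intervals that left out 0 in all 4. That pattern rested on 6 WT barcodes rich in Ngp, described with that gene, and without them the log2 ratio was 1.37 in cluster 3 and 0.32 in cells with 2000 to 4000 UMIs.

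**Figure D1:**
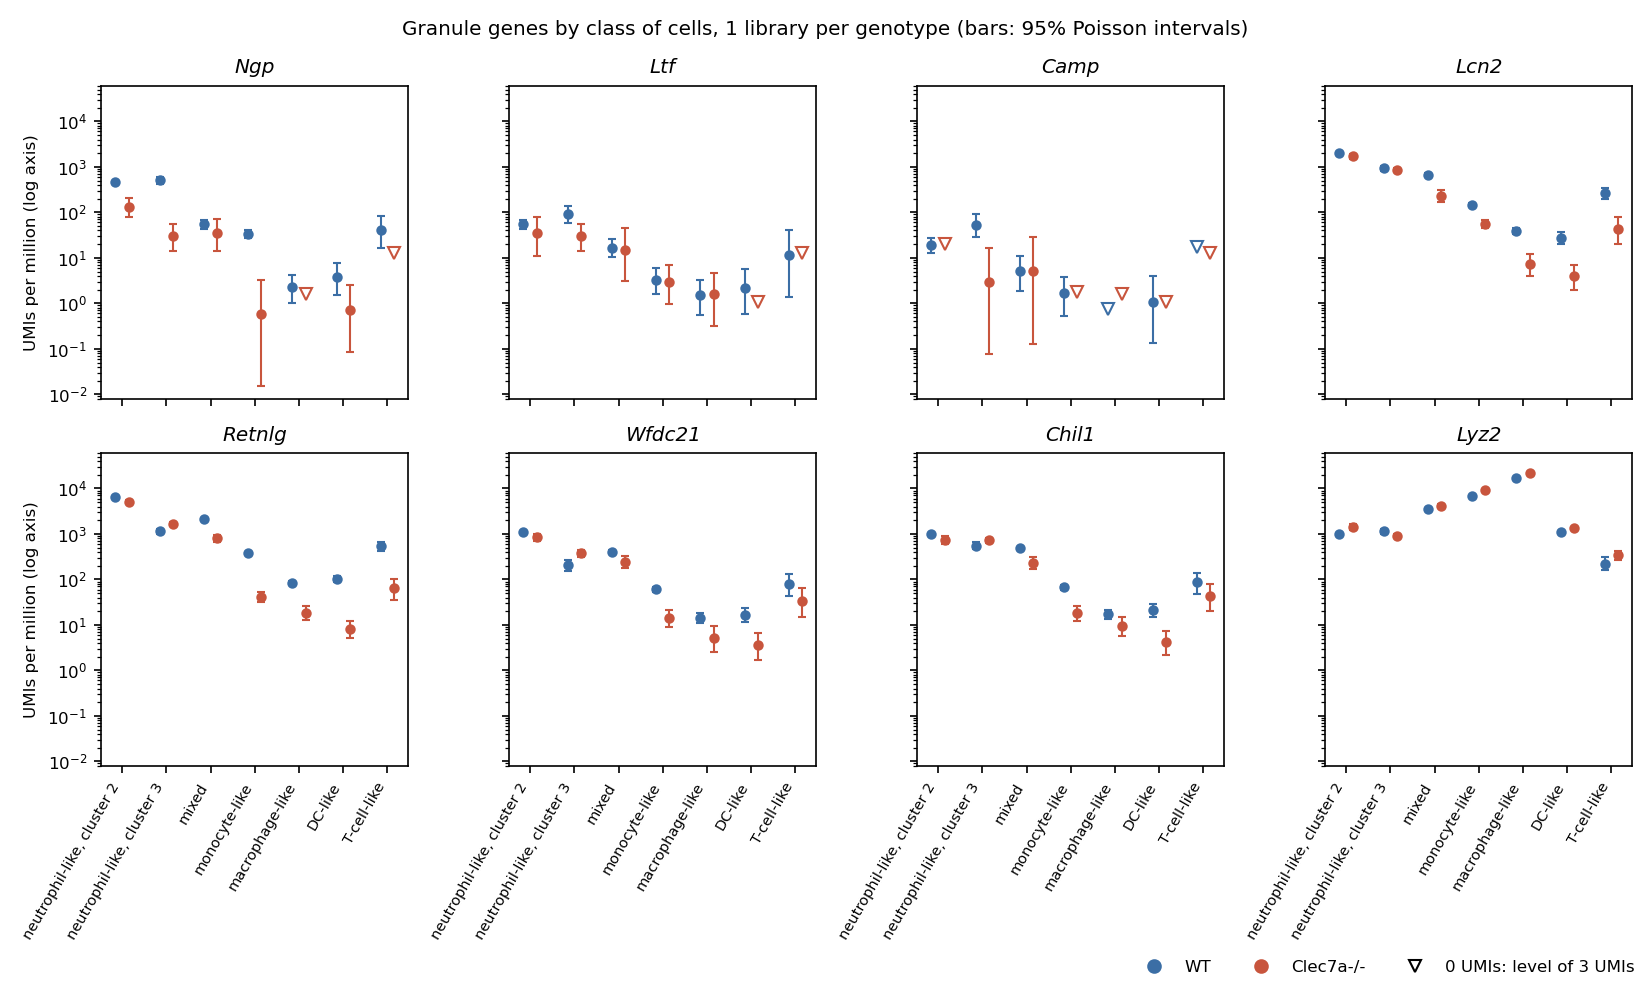
Level of each gene in CPM (log axis) in 7 groups of cells, WT in blue and Clec7a-/- in red, with 95% Poisson intervals; an open triangle marks 0 UMIs and sits at the level that 3 UMIs would give. The 7 genes are highest in a neutrophil-like cluster in both libraries, except Camp in Clec7a-/- (1 UMI in cluster 3 and 1 in mixed cells), whereas Lyz2 is highest in macrophage-like cells, at 16808 CPM in WT and 22384 CPM in Clec7a-/-.

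Ngp had the largest difference between libraries among the members with at least 100 UMIs. It was at 463 CPM (809 UMIs) in WT and 60.9 CPM (29 UMIs) in Clec7a-/- neutrophil-like cells (log2 ratio -2.93, -3.51 to -2.39). Few cells carried it: a UMI of Ngp was present in 143 of 679 WT cells and in 11 of 403 Clec7a-/- cells. Much of the WT level sat in a handful of barcodes. In the whole WT library 7 barcodes had 50 or more Ngp UMIs, with 150, 97, 68, 66, 63, 62 and 57, and the highest Clec7a-/- barcode had 10. Of these, 4 were in cluster 2, 2 in cluster 3, and 1, with 16390 UMIs in all, was monocyte-like. The 6 neutrophil-like ones held 61.9% of the Ngp UMIs of the class, and without them Ngp was at 178 CPM in WT, a log2 ratio of -1.55 (-2.15 to -1.0). Over the whole class Ngp was lower in Clec7a-/- cells with and without those barcodes, but within clusters and depth bands the sign depended on them. Without them Ngp in cluster 2 was at 207 CPM in WT and 131 CPM in Clec7a-/- cells (-0.66, -1.41 to 0.01). In cluster 3 only 3 UMIs were left in WT against 10 in Clec7a-/- cells, or 11.7 and 30.2 CPM, and the ratio turned above 0 (1.37, -0.59 to 3.87). It also turned above 0 in cells with 2000 to 4000 UMIs, at 196 and 245 CPM (0.32, -0.42 to 0.98). Single Clec7a-/- cells held 10 and 6 of the 20 Clec7a-/- UMIs there, so that level rested on few cells too. The ratio stayed below 0 in cells with 1000 to 2000 UMIs, from 13 and 4 UMIs (-2.70, -4.77 to -1.0). Of those 13 WT UMIs 11 lay in 1 barcode of cluster 2, so this ratio rested largely on a single cell.

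Ltf and Camp, with Ngp the genes most tied to the myelocyte stage, were sparse. Ltf was at 60.6 CPM (106 UMIs) in WT cells and 31.5 CPM (15 UMIs) in those of Clec7a-/-, with a log2 ratio of -0.95 (-1.83 to -0.16). Camp had 42 UMIs in WT and 1 UMI in Clec7a-/- (24.0 and 2.1 CPM), the log2 ratio being -3.52 (-8.85 to -0.96). The Ngp-rich barcodes also held 34.9% of the WT Ltf UMIs and 73.8% of the WT Camp UMIs, including 19 Ltf and 10 Camp UMIs in the barcode with 150 Ngp UMIs. Without them the log2 ratios were -0.34 (-1.25 to 0.48) for Ltf and -1.60 (-7.02 to 1.19) for Camp, so neither difference was detectable at this depth apart from those barcodes. In cluster 2 of the Clec7a-/- library Camp had 0 UMIs, which allows a level of up to 20.6 CPM (3 UMIs), above the 18.8 CPM of WT.

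Retnlg supplied more than any other member to the sum, with 10067 of its 17594 UMIs in WT and 1295 of its 2471 in Clec7a-/- neutrophil-like cells. Its level was 5760 CPM in WT cells and 2717 CPM in those of Clec7a-/-, with a log2 ratio of -1.08 (-1.17 to -1.0). The median WT cell held 9 Retnlg UMIs and the highest 121, whereas the median Clec7a-/- cell held 0 and the highest 98. Cells with 10 or more made up 47.1% of the WT cells (320 cells) and 4.47% of the Clec7a-/- cells (18 cells), counts not corrected for the shallower Clec7a-/- cells. Retnlg UMIs were thereby concentrated in Clec7a-/-, where 10 cells held 51.7% of them, against 9.27% in the top 10 WT cells. Between 2000 and 4000 UMIs per cell the order was the other way, with 6273 CPM in WT and 9145 CPM in Clec7a-/- cells (0.54, 0.43 to 0.65). All 10 of those Clec7a-/- cells lay in this band of 34, with 29 to 98 Retnlg UMIs each. The other Clec7a-/- cells of the band held 10 or fewer, so the higher level rested on a minority of cells.

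Lcn2, the siderophore-binding lipocalin, was at 1843 CPM in WT and 1125 CPM in Clec7a-/- cells (-0.71, -0.85 to -0.58). Within cluster 2 it was at 2002 and 1732 CPM (-0.21, -0.40 to -0.02), and within cluster 3 at 935 and 858 CPM (-0.12, -0.38 to 0.13). The difference across the class was therefore larger than that within either cluster. Wfdc21 was at 984 and 523 CPM (-0.91, -1.11 to -0.72), with 1119 and 852 CPM in cluster 2 and 208 and 378 CPM in cluster 3 (0.86). Chil1 was at 932 and 726 CPM (-0.36, -0.53 to -0.19), with 999 and 735 CPM in cluster 2 and 550 and 722 CPM in cluster 3 (0.39). For Retnlg, Wfdc21 and Chil1 the ratio was thus below 0 in cluster 2 and above 0 in cluster 3, over all depths. Among cells with 2000 to 4000 UMIs cluster 2 held 401 WT and 26 Clec7a-/- cells. There the ratio was 0.59 (0.47 to 0.70) for Retnlg and 0.47 (0.24 to 0.70) for Lcn2. It was 0.16 (-0.20 to 0.49) for Wfdc21 and -0.49 (-0.95 to -0.06) for Chil1. Among cluster 2 cells with 1000 to 2000 UMIs (10 WT and 48 Clec7a-/-) the Retnlg ratio was -3.12.

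Lyz2 in neutrophil-like cells was at 1000 CPM (1748 UMIs) in WT cells and 1062 CPM (506 UMIs) in those of Clec7a-/-, with a log2 ratio of 0.09 (-0.06 to 0.23). In cluster 2 it was at 976 and 1409 CPM (0.53, 0.31 to 0.74), and in cluster 3 at 1136 and 909 CPM (-0.32, -0.56 to -0.08). Lyz2 has a close paralog, Lyz1, and reads that match both could have been split between them. Lyz1 had 3 UMIs in the neutrophil-like cells of each library.

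**Figure D2:**
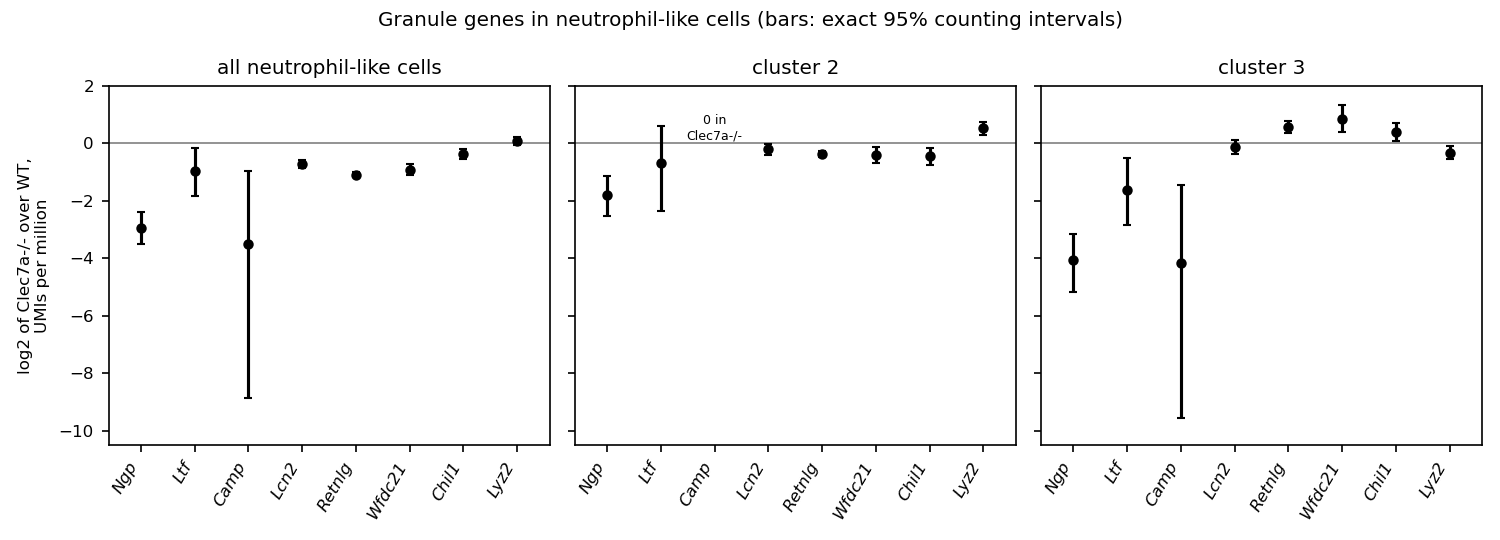
Log2 ratio of Clec7a-/- over WT for each gene, with exact 95% counting intervals, in all neutrophil-like cells and in clusters 2 and 3; no ratio is drawn for Camp in cluster 2, where the Clec7a-/- library had 0 UMIs. Retnlg, Wfdc21 and Chil1 lie below 0 in cluster 2 and above 0 in cluster 3, and Ngp lies below 0 in each panel, in cluster 3 only with the 2 Ngp-rich WT barcodes it holds.

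Over all genes with at least 100 UMIs in neutrophil-like cells, 1.84% were at least 2-fold lower and 2.4% at least 2-fold higher in Clec7a-/-. Of the 7 members that reached 100 UMIs (all but Camp), 2 were at least 2-fold lower, Ngp and Retnlg, and none was 2-fold higher. Ngp and Ltf reached the minimum through WT alone, with 29 and 15 UMIs in Clec7a-/-, so this count is a description. The median log2 ratio was -0.91 over these 7 members, Lyz2 included, and -0.01 over the 2171 genes. Since Ngp and Ltf are among the 7, this median is a description as well. In cluster 2 the shares of all genes 2-fold lower and higher were 3.28% and 2.52%, and Ngp alone among 6 members was lower, none higher. In cluster 3 the shares were 10% and 9.83%, so that a 2-fold difference was common there in this comparison, and again Ngp alone among 6 members was 2-fold lower and none higher. Without the Ngp-rich barcodes Ngp was not 2-fold lower in either cluster. Neutrophil markers differed as well: S100a8 was at 11956 CPM in WT and 7397 CPM in Clec7a-/- neutrophil-like cells (log2 ratio -0.69), while Csf3r, the receptor for granulocyte colony-stimulating factor, was at 1561 and 2298 CPM (0.56).

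Depth was examined further because the Clec7a-/- neutrophil-like cells were shallower. Among cells with 500 to 1000 UMIs (77 WT and 187 Clec7a-/- cells) the sum of the 7 genes was 2247 CPM in WT and 3619 CPM in Clec7a-/- cells (0.69, 0.41 to 0.98). There 2 WT cells of cluster 2 held 62 of the 131 WT UMIs. In the cluster 3 cells of this band the sum was 1224 and 3588 CPM (1.55, 1.19 to 1.94). Among cells with 1000 to 2000 UMIs (91 and 181 cells) it was 5658 and 3346 CPM (-0.76, -0.90 to -0.61). That WT level rested largely on few cells. Its 10 cluster 2 cells held 338 of the 718 WT UMIs, and 1 Ngp-rich barcode of cluster 3 held 123. In the cluster 3 cells of this band, that barcode included, the sum was 3446 and 3178 CPM (-0.12, -0.31 to 0.07). Deeper cells carried more of the granule transcripts, as CPM, in both libraries when the lowest and the highest of the 3 bands are compared, and the sign of the ratio changed from band to band. The Clec7a-/- level in the highest of the 3 bands rested on a few of its 34 cells. Ngp was at 599 CPM in WT and 15.9 CPM in Clec7a-/- cells with 1000 to 2000 UMIs (-5.23), and at 476 and 245 CPM in cells with 2000 to 4000 UMIs (-0.96, -1.68 to -0.32). Without the Ngp-rich barcodes these ratios were -2.70 and 0.32. The first of the 2 rested largely on 1 further WT barcode, with 11 Ngp UMIs. Below 1000 UMIs there were 1 and 5 Ngp UMIs. Only 1 Clec7a-/- neutrophil-like cell had 4000 or more UMIs, against 73 WT cells, so the deepest cells could not be compared.

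**Figure D3:**
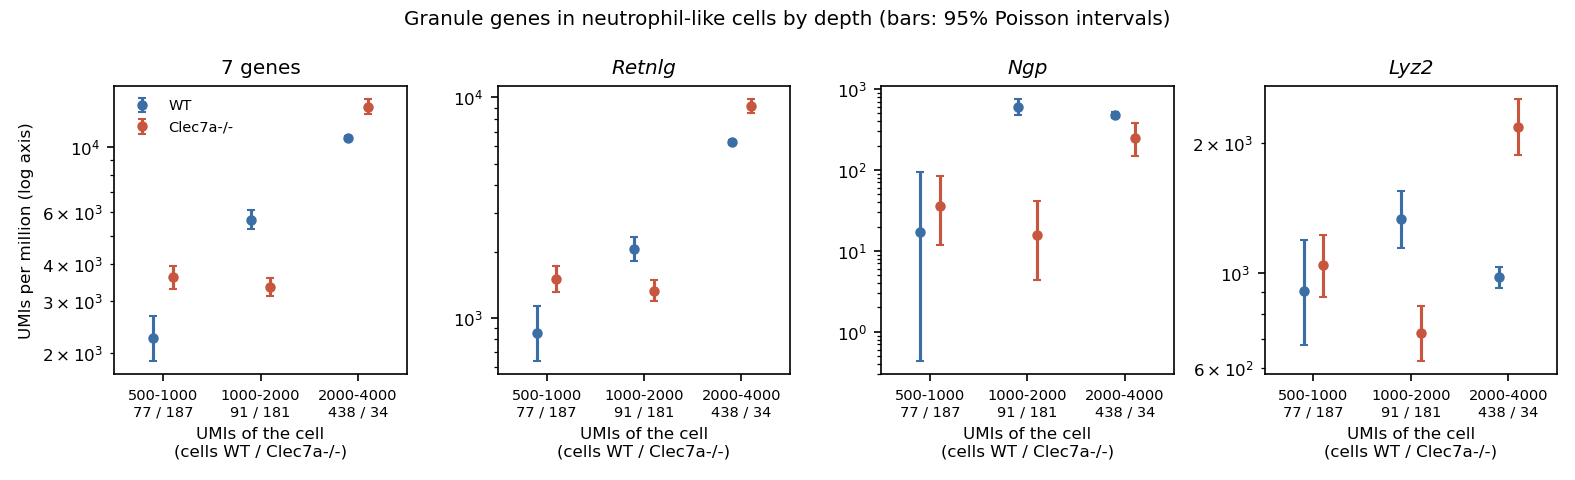
Levels (CPM, log axes that differ between panels) of the sum of the 7 genes, Retnlg, Ngp and Lyz2 in neutrophil-like cells of 3 depth bands, WT in blue and Clec7a-/- in red, with 95% Poisson intervals and the cells of each library under the axis. The order of the libraries for the sum changes between bands: 2247 and 3619 CPM, then 5658 and 3346 CPM, then 10681 and 13663 CPM (WT, then Clec7a-/-). The last Clec7a-/- value rests on a few of its 34 cells. In the lowest band 2 cluster 2 cells hold 62 of the 131 WT UMIs of the sum. In the middle band 10 cluster 2 cells and 1 Ngp-rich barcode hold 338 and 123 of the 718 WT UMIs of the sum.

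The clusters differed in their granule transcripts within each library too. In WT the sum of the 7 genes was 3.22-fold higher in cluster 2 than in cluster 3, and in Clec7a-/- it was 2.33-fold higher. Retnlg was 5.80-fold and Wfdc21 5.38-fold higher in cluster 2 of WT, while Ngp was at 455 CPM in cluster 2 and 508 CPM in cluster 3, where 2 Ngp-rich barcodes, with 66 and 63, held nearly all of the 132 UMIs. Across all genes of that WT comparison 9.23% were at least 2-fold higher in cluster 2, and 3 of the 7 members with enough UMIs were. In Clec7a-/- 1.05% of genes were 2-fold higher and 0.915% 2-fold lower in cluster 2, and 3 of 5 members were higher, none lower. The genes were left out of the clustering, but S100a8 and other genes of these cells were not, so the split is a description. Cluster 3 was itself mixed in depth. At a higher clustering resolution 126 of its 194 WT cells and 39 of its 325 Clec7a-/- cells left the neutrophil-like class. In the 68 and 286 cells that stayed, Retnlg was at 1966 CPM in WT and 1837 CPM in Clec7a-/- cells (-0.10, -0.32 to 0.13) and the sum of 7 genes at 6132 and 3977 CPM (-0.62, -0.76 to -0.49). The positive ratio of Retnlg in cluster 3 was therefore not seen in those cells. Their sum of 7 genes was not recomputed without the Ngp-rich barcodes. These held 132 and 123 of the 904 WT UMIs of cluster 3, so the lower sum in Clec7a-/- cells can rest on them.

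Detection in single cells was compared after thinning each cell to 1000 UMIs. At that depth 3 or more of the 7 genes were detected in 342 of 602 WT neutrophil-like cells (56.8%, exact interval 52.7 to 60.8%) and in 63 of 216 Clec7a-/- cells (29.2%, 23.2 to 35.7%). Shallower cells were left out, 77 in WT and 187 in Clec7a-/-. In the same cells without thinning the shares were 79.7% and 43.5%, and with the shallower cells put back 71.1% and 30.5%. At 1000 UMIs the clusters again went apart, with 67.3% and 42.7% in cluster 2 and 12.6% and 24.8% in cluster 3. Among cells deep enough to be thinned to 2000 UMIs the shares were 84.7% in WT (433 of 511) and 82.9% in Clec7a-/- (29 of 35). In T-cell-like cells, which should not make these proteins, the shares at 1000 UMIs were 5.36% (3 of 56) and 0 of 91, which allows up to 3.30%. The T-cell-like medians were 2082.5 and 1552 UMIs.

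Ngp-positive WT cells carried the other transcripts more often than Ngp-negative ones. Retnlg had a UMI in 140 of 143 Ngp-positive cells (97.9%) and in 390 of 536 Ngp-negative cells (72.8%), with medians of 2949 and 2407.5 UMIs. Of the 15 Camp-positive WT cells 9 also had Ngp. Ltf followed another pattern, since Ngp had a UMI in 11 of 62 Ltf-positive cells (17.7%) and in 132 of 617 Ltf-negative cells (21.4%). These shares were not corrected for depth.

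**Figure D4:**
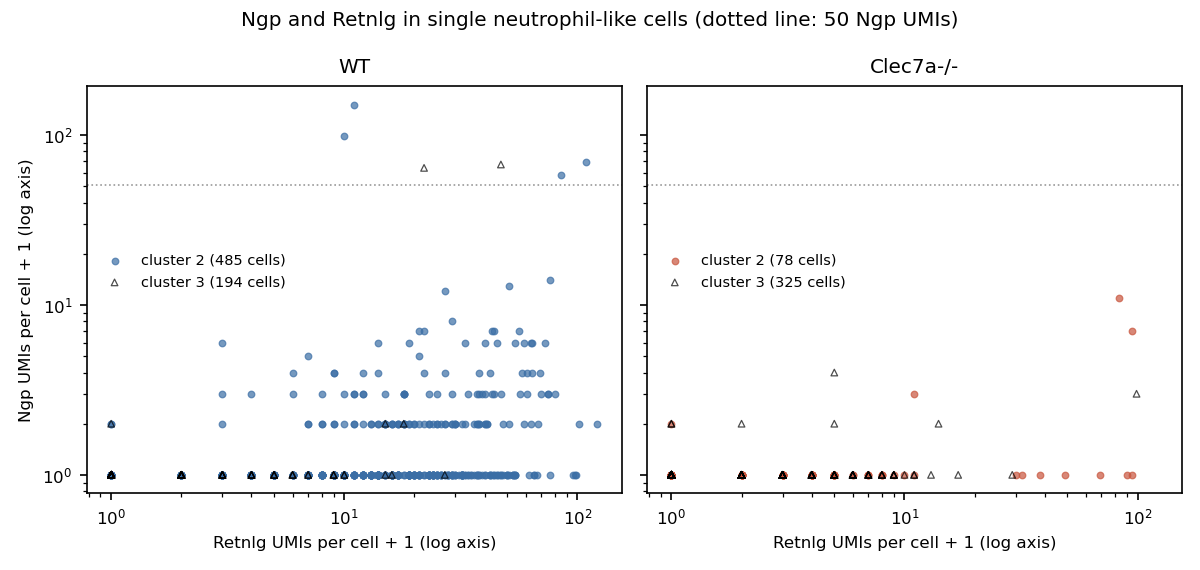
UMIs of Ngp against UMIs of Retnlg in single neutrophil-like cells (each plus 1, log axes; points overlap), WT on the left and Clec7a-/- on the right, with cluster 2 as filled circles and cluster 3 as open triangles. The 6 WT cells above the dotted line at 50 Ngp UMIs hold 501 of the 809 Ngp UMIs, and no Clec7a-/- cell exceeds 10.

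Most transcripts of the 7 genes lay in neutrophil-like cells. These held 69.0% of the UMIs in kept WT cells (exact interval 68.5 to 69.6%) and 77.3% in kept Clec7a-/- cells (75.8 to 78.7%), and the mixed cluster held a further 17.6% and 9.63%. In WT the sum was 14.6-fold higher in neutrophil-like than in monocyte-like cells, 57.9-fold higher than in dendritic cell (DC)-like cells and 63.9-fold higher than in macrophage-like cells. Against all cells outside the neutrophil-like and mixed groups, 11.8% of genes were at least 2-fold higher in WT neutrophil-like cells, and so were 6 of the 7 members with 100 or more UMIs. Lyz2 was 2-fold lower there, as were 60.1% of all genes. In Clec7a-/- 4 of the 5 members with enough UMIs were 2-fold higher, against 12.3% of genes. Ltf in WT, and Wfdc21 and Chil1 in Clec7a-/-, reached 100 UMIs only through the neutrophil-like cells. The member counts of both libraries are therefore a description only.

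Outside these groups the granule transcripts were lower in the Clec7a-/- library in each class compared. The sum of the 7 genes was 690 CPM in WT and 133 CPM in Clec7a-/- monocyte-like cells, a log2 ratio of -2.38 (-2.58 to -2.18). It was 157 and 41.9 CPM in macrophage-like cells, and 174 and 20.7 CPM in DC-like cells. T-cell-like cells had 1014 and 181 CPM (-2.48, -3.00 to -2.00), a higher level than in the monocyte-, macrophage- and DC-like classes. That level sat in few cells: 3 of 66 WT cells held 65.0% of the 177 UMIs, and 6 of 121 Clec7a-/- cells held 74.4% of 43. No UMI was found in 68.2% and 86.8% of the T-cell-like cells. Mixed cells stood closest to neutrophils, with 3753 and 1563 CPM (-1.26, -1.44 to -1.10). Over all cells outside, the sum was 366 CPM in WT and 60.9 CPM in Clec7a-/- (-2.59, -2.74 to -2.44), and the ratio was below 0 in each of 4 depth bands, from -3.05 to -1.61. Neutrophil markers that are no members differed outside to unequal degrees. S100a8 was at 433 CPM in WT and 105 CPM in Clec7a-/- (-2.05), and the log2 ratio was -2.06 for Cxcr2, -1.42 for S100a9 and -1.43 for Ly6g (22 and 6 UMIs). Csf3r was at 81.7 and 63.9 CPM (-0.35, -0.53 to -0.18), and in monocyte-like cells its ratio was -0.10 (-0.34 to 0.14). In T-cell-like cells the ratio was -2.28 for S100a8, -1.58 for S100a9 and -0.29 (-0.98 to 0.40) for Csf3r. The presence of these transcripts in T-cell-like cells moved with the difference in the myeloid classes, and the part of free RNA in it was not tested.

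Single members were compared in mixed, monocyte-, macrophage-, DC- and T-cell-like cells. Lcn2 and Retnlg were lower in Clec7a-/- beyond counting error in all 5 groups, and Lyz2 was higher in all 5. Wfdc21 and Chil1 were lower in 4, Ngp in 3, Ltf in 1 and Camp in none. Counts were small for Ltf, with 4 and 0 UMIs in DC-like cells. For Ngp they were 100 and 1 in monocyte-like, 7 and 2 in DC-like and 7 and 0 in T-cell-like cells. Ltf had 6 and 3 UMIs in macrophage-like cells (0.07, -2.56 to 2.30). In monocyte-like cells 0.921% of all genes were at least 2-fold lower in Clec7a-/-, and so were Ngp, Lcn2, Retnlg, Wfdc21 and Chil1 among the 6 members with 100 or more UMIs over both libraries. Retnlg was at 377 CPM in WT and 41.8 CPM in Clec7a-/- monocyte-like cells (-3.17), and Ngp at 33.1 and 0.596 CPM, from 100 UMIs, 62 of them in 1 barcode, and 1 UMI. Ngp reached the minimum of 100 UMIs through WT alone and would not have without that barcode, and each of the other 4 had under 100 UMIs in Clec7a-/-, so the number called is a description only. The share of all genes 2-fold lower was 0.513% in macrophage-like, 0.7% in DC-like, 1.5% in T-cell-like and 2% in mixed cells. Over all cells outside it was 0.935%, and the same 5 members were 2-fold lower, Ngp with 124 and 3 UMIs. Those of WT included the 62 of that barcode, without which Ngp would not have reached the minimum there. The members 2-fold lower were Lcn2 and Retnlg of 3 in macrophage-like cells and Retnlg of 2 in DC-like and in T-cell-like cells. In mixed cells they were Lcn2, Retnlg and Chil1 of 5. Apart from Retnlg in mixed cells (158 UMIs), each of these had under 100 UMIs in Clec7a-/-. These counts are therefore a description only as well. No member was 2-fold higher in Clec7a-/- in these groups, where 0.225% (monocyte-like), 0.265% (macrophage-like), 0.453% (DC-like), 0.136% (T-cell-like), 0.768% (mixed) and 1.4% (all outside) of genes were. The transcripts outside were unevenly spread: 5% of the cells outside held 69.3% of the UMIs of the 7 genes in WT and 72.1% in Clec7a-/-. No UMI of the 7 was found in 65.7% and 87.6% of those cells.

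The make-up of the 7 transcripts was compared between classes. Retnlg gave 52.5 to 58.6% of their UMIs in the WT groups other than cluster 3, where it gave 32.5%. In Clec7a-/- the share of Retnlg ranged from 31.4% in monocyte-like cells to 59.5% in cluster 2. Lcn2 gave 17.8% in WT cluster 2, 21.4% in WT monocyte-like cells and 26.0% in WT T-cell-like cells (exact interval 19.7 to 33.1%). These WT shares of Lcn2 were near that of cluster 2 but not equal to it. In Clec7a-/- monocyte-like cells Lcn2 gave 41.7% (35.2 to 48.5%), more than Retnlg, against 20.1% in Clec7a-/- cluster 2. In the other Clec7a-/- groups its share lay between 14.9% (mixed) and 23.3% (cluster 3). UMIs at the 3′ end were counted without a correction for gene length.

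**Figure D5:**
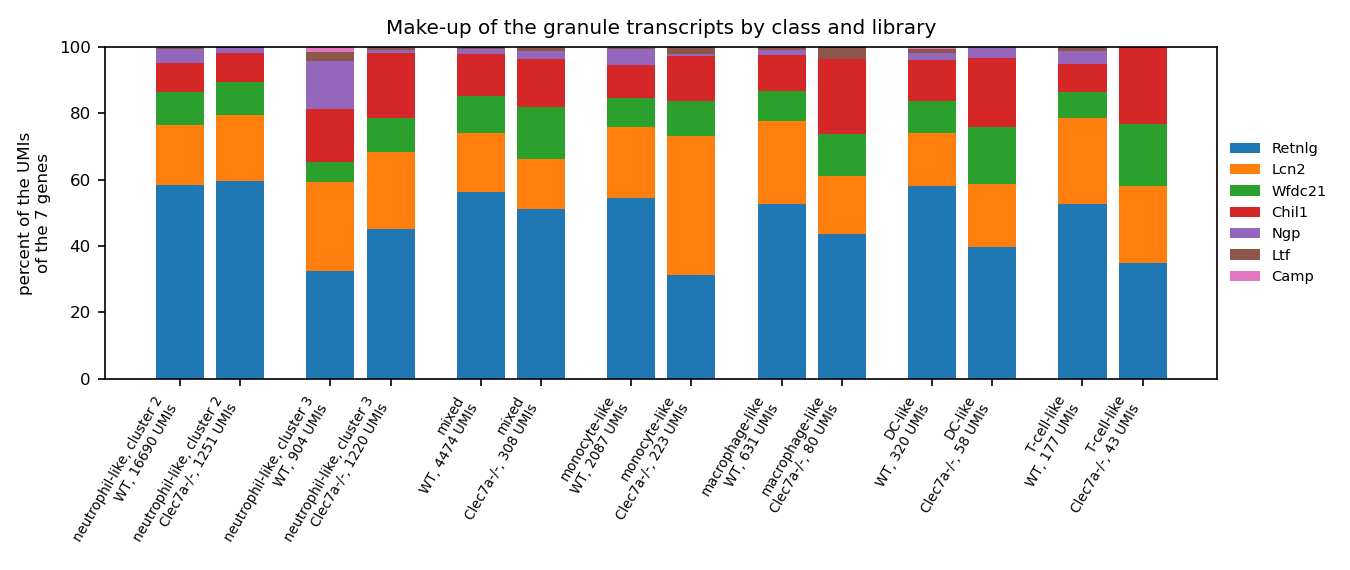
Percent of the UMIs of the 7 genes that each gene supplies, by class and library, with the number of UMIs behind each bar. Retnlg gives 58.6% in WT cluster 2 and 32.5% in WT cluster 3, and the Clec7a-/- bars outside neutrophils rest on 43 to 308 UMIs.

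Lyz2 had another distribution from that of the 7 genes. Macrophage-like cells held 68.7% of its UMIs in WT and 65.6% in Clec7a-/-, monocyte-like cells held 20.9% and 23.9%, and neutrophil-like cells held 1.78% and 0.776%. It was at 16808 CPM in WT and 22384 CPM in Clec7a-/- macrophage-like cells (0.41, 0.40 to 0.43), with 12874 and 19139 CPM in cluster 5 and 19753 and 25314 CPM in cluster 6. Monocyte-like cells had 6781 and 9313 CPM (0.46, 0.43 to 0.49), and DC-like cells 1116 and 1317 CPM (0.24, 0.16 to 0.32). Lyz2 was thus higher in Clec7a-/- in each of these classes, while over all cells outside neutrophils it was 9853 and 9277 CPM (-0.09). Class shares differed between the libraries: DC-like cells were 13.4% of kept cells in WT and 28.1% in Clec7a-/-, and macrophage-like cells 18.5% and 14.1%. In macrophage-like cells Lyz1 had 44 UMIs in WT and 186 in Clec7a-/-.

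Genes of the other granule types were counted in the same way in neutrophil-like cells. Primary granule genes were nearly undetected: Elane and Ms4a3 had 0 UMIs in both libraries, which allows up to 1.72 CPM in WT and 6.30 CPM in Clec7a-/-, and Mpo had 6 and 3. Of the 6 primary granule genes Cd63, which other compartments also use, alone reached 100 UMIs (1329 and 1381 CPM). Of 10 other secondary granule genes 6 reached 100 UMIs, and none was 2-fold lower or higher, with a median log2 ratio of -0.24 beside -0.01 over all genes. Mmp8, the neutrophil collagenase, was at 279 and 229 CPM (-0.28, -0.60 to 0.02), and Hp (haptoglobin) at 64.7 and 37.8 CPM (-0.78, -1.58 to -0.05). Olfm4, which marks a subset of neutrophils, was at 84.7 CPM in WT and 147 CPM in Clec7a-/- (0.79, 0.36 to 1.21). Within the clusters the Mmp8 ratio lay above 0, at 69.3 and 106 CPM in cluster 3 (0.61, -0.25 to 1.52). In cluster 2 Mmp8 was at 315 and 509 CPM (0.69, 0.32 to 1.05). Within cluster 2 the same 6 genes reached 100 UMIs, with a median log2 ratio of 0.24 beside 0.002 over all genes. None of the 6 had 100 UMIs in Clec7a-/- there, so this median is a description. Hp was 2-fold lower there (103 and 4 UMIs, log2 ratio -1.33, -3.24 to 0.07). Olfm4 was 2-fold higher (132 and 28 UMIs, log2 ratio 1.12, 0.47 to 1.71). Over all genes 3.28% were 2-fold lower and 2.52% 2-fold higher in that cluster. Hp and Olfm4 reached the minimum through WT alone, so these calls are a description. Among the 6 members there Ngp alone was 2-fold lower, and it was not without the Ngp-rich barcodes. In cluster 3 Cyba alone reached 100 UMIs, at 281 and 187 CPM. Over the class Cybb, a subunit of the NADPH oxidase, was at 89.3 and 44.1 CPM, a log2 ratio of -1.02 that fell short of 2-fold once the pseudocount used for the calls was added.

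Of 9 tertiary granule and secretory vesicle genes 7 reached 100 UMIs and none differed 2-fold, with a median log2 ratio of -0.09. Mmp9 (gelatinase B) was at 509 CPM in WT and 478 CPM in Clec7a-/- cells (-0.09, -0.30 to 0.12), and Fpr1, a formyl peptide receptor, at 952 and 497 CPM (-0.94, -1.14 to -0.74). Of 8 transcription factors linked to granule genes 5 reached 100 UMIs and none differed 2-fold, with a median of 0.08. Cebpe, which drives secondary granule genes in the bone marrow, had 13 UMIs in WT and 6 in Clec7a-/-, whereas Cebpb was at 2910 and 2881 CPM (-0.01, -0.10 to 0.07). Among 8 family relatives Wfdc17 alone reached 100 UMIs, at 2331 and 1444 CPM (-0.69, -0.81 to -0.57). None of the 4 receptors of granule proteins reached it.

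The genes most like the 7 in pattern were sought over 13 class-by-library sums of at least 20 cells. Among 8470 genes the highest correlations with the mean log2(CPM + 1) of the 7 were those of Cxcr2 (0.985), Acod1 (0.977), S100a8 (0.965), Steap4 (0.964) and Ankrd22 (0.962). The 7 members, which are part of that mean, had correlations of 0.861 (Camp) to 0.973 (Wfdc21), and Lyz2 had -0.14. The 13 sums share libraries and depth, so these values describe likeness only. In neutrophil-like cells Cxcr2, a chemokine receptor, was at 495 CPM in WT and 283 CPM in Clec7a-/- (-0.81, -1.08 to -0.54), while Steap4 was at 96.7 and 105 CPM (0.12, -0.37 to 0.58).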

How the data were processed

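CD11b+ and CD11c+ cells of colorectal polyps were profiled in 1 WT and 1 Clec7a-/- library. The labels name a SeekOne MM 3′ kit in the protocol and 10x Genomics in the description. The deposited values are UMI counts, 1 per gene and barcode and not normalized, and the submitters' processing notes name Cell Ranger 2.1.1 and mm10. The lowest total was 500 UMIs (WT) and 501 UMIs (Clec7a-/-), so the deposited barcodes had passed a minimum. Of the 32285 gene IDs 32235 were in GENCODE M21. Clec7a was not analysed here.

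The cell filter of the study was applied (from 200 to 4000 genes, no more than 5% mitochondrial UMIs). Seurat 5.3.0 (R 4.3.3) normalized to 10000 UMIs and clustered on 2000 variable features, without the granule genes, and 20 components, at the smallest resolution with at least 15 clusters. A cluster was named when 3 or more markers of a list were 2-fold above the other cells. The clusters and names were rebuilt here and can differ from those of the study. Scrublet (scanpy 1.11.5) marked 0 WT cells and 1 Clec7a-/- cell and was taken as not having worked, so doublets were not removed. Python 3.11.15, numpy 2.4.6, scipy 1.17.1, pandas 2.3.3 and matplotlib 3.10.9 were used for the rest.

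UMIs were summed per class and library and given as CPM. Ratios carry exact conditional 95% intervals, levels exact Poisson intervals and shares exact Clopper-Pearson intervals, all for counting error only, and 0 was read as up to 3 UMIs. Shares of cells were taken after thinning to 1000 UMIs (seed 1). The 2-fold calls used genes with at least 100 UMIs and a pseudocount of 0.5 UMI. TMM factors (edgeR 4.0.16) would shift the log2 ratio by -0.02 in neutrophil-like cells and by -0.06 outside. The scripts were tested on simulated data. Both samples carry replicate number 1, which pairs nothing. The genes named were the 8 members, the fixed lists and the 5 genes most like the 7 in pattern, and barcodes rich in Ngp (50 or more UMIs), depth bands and single clusters were singled out after their values were seen. The members and lists were chosen with earlier results of these data known. Motifs were searched in RefSeq promoter sequences.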

Additional observations from a re-analysis of the deposited data

Results flagged for a closer look

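The log2 ratio of Clec7a-/- over WT had opposite signs in different groups of cells for 4 genes, which drew attention to them. The differences between groups were not tested, since each genotype had 1 library. Retnlg had 0.56 in cluster 3, but -0.36 in cluster 2, -1.40 in mixed, -3.17 in monocyte-like, -2.18 in macrophage-like, -3.62 in DC-like and -3.08 in T-cell-like cells. Wfdc21 had 0.86 in cluster 3, but -0.39 in cluster 2, -0.75 in mixed, -2.07 in monocyte-like, -1.44 in macrophage-like and -2.24 in DC-like cells. Chil1 had 0.39 in cluster 3, but -0.44 in cluster 2, -1.08 in mixed, -1.91 in monocyte-like, -0.87 in macrophage-like and -2.31 in DC-like cells. Lyz2 went the other way, with -0.32 in cluster 3, and 0.53 in cluster 2, 0.23 in mixed, 0.46 in monocyte-like, 0.41 in macrophage-like, 0.24 in DC-like and 0.61 in T-cell-like cells. Each of these ratios had a counting interval that left out 0. Within cluster 2 the sign for Retnlg depended on depth, with 0.59 in its cells with 2000 to 4000 UMIs. Cluster 3 was the shallowest of these groups, with medians of 1181 and 919 UMIs, and its part in the opposite signs was not tested. Some cluster 3 cells stayed neutrophil-like at a higher clustering resolution (68 WT and 286 Clec7a-/- cells). In these the ratio was -0.10 for Retnlg, 0.07 for Wfdc21 and -0.57 for Lyz2. Those 3 ratios were not recomputed without the Ngp-rich WT barcodes. The ratio of Chil1 in these cells is not reported here.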

How the results depend on the processing

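The log2 ratio of the sum of 7 genes in neutrophil-like cells, -0.96, changed sign in cells with 500 to 1000 UMIs (0.69), in cells with 2000 to 4000 UMIs (0.36) and in cluster 3 alone (0.083). It stayed below 0 but moved with 500 to 6000 detected genes (-0.83), with at least 1000 UMIs (-0.83), in cells with 1000 to 2000 UMIs (-0.76), in cluster 2 alone (-0.38), as a mean over cells (-1.07), with the mixed cluster counted as neutrophil-like (-0.86) and without the Ngp-rich barcodes (-0.88). Under 10 other settings it lay between -0.98 and -0.95. In cells with 500 to 1000 UMIs, 2 cluster 2 cells held 62 of the 131 WT UMIs of the sum. In cells with 2000 to 4000 UMIs the Clec7a-/- level of the sum rested on a few cells. In those with 1000 to 2000 UMIs, 10 cluster 2 cells and 1 Ngp-rich barcode held 338 and 123 of the 718 WT UMIs. In cluster 3 the WT sum rested in part on Ngp-rich barcodes. Depth bands, single clusters, the mixed cluster, the Ngp-rich barcodes, the cells with eosinophil markers, the unthinned shares in the same cells and the removal of the top 5% by Scrublet score were chosen after seeing the data. In cells with 500 to 1000 UMIs the ratio turned above 0 for Ngp (1.07), Lcn2 (0.54), Retnlg (0.81), Wfdc21 (1.47) and Chil1 (0.42). The intervals of Ngp (1 and 5 UMIs, -2.09 to 6.63) and Chil1 (-0.18 to 1.05) included 0. In cells with 1000 to 2000 UMIs the ratio turned above 0 for Chil1 (0.29, -0.10 to 0.68). In cells with 2000 to 4000 UMIs it did so for Lcn2 (0.37), Retnlg (0.54) and Wfdc21 (0.13, -0.20 to 0.44). In cluster 3 alone Retnlg (0.56), Wfdc21 (0.86) and Chil1 (0.39) were above 0. Without the Ngp-rich barcodes Ngp also turned above 0 in cluster 3 (1.37) and in cells with 2000 to 4000 UMIs (0.32). Lyz2 (0.09) was -0.88 and 1.16 in cells with 1000 to 2000 and 2000 to 4000 UMIs, and 0.53 and -0.32 in clusters 2 and 3. Over the single genes of the 7, 137 alternatives gave 108 values with little change, 17 that moved and 12 that changed sign. The cause was not tested.

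The ratio outside, -2.59, kept its sign under 14 settings. It moved with 500 to 6000 genes (-2.14), all variable features (-1.96), a resolution higher by 0.4 (-2.43), reciprocal PCA (-2.27), classes from markers without clustering (-2.19), the Scrublet removal (-2.07), a mean over cells (-2.22) and the mixed cluster counted as outside (-2.87). The WT share of the 7 genes' UMIs in neutrophil-like cells, 69.0%, was 68.2% at 10% mitochondrial UMIs, 68.3% at the higher resolution, 66.8% with reciprocal PCA, 86.0% with markers alone, 74.7% after the Scrublet removal, 86.6% with the mixed cluster and 68.2% without Ngp-rich barcodes. The Clec7a-/- share, 77.3%, was 73.9% at 10% mitochondrial UMIs, 72.3% with 500 to 6000 genes, 71.2% with reciprocal PCA, 82.2% with markers alone, 80.9% after the Scrublet removal, 73.2% with at least 1000 UMIs and 86.9% with the mixed cluster. The WT share of cells with 3 or more genes, 56.8%, was 64.6% at the higher resolution, 67% with reciprocal PCA, 50.6% with markers alone, 30.8% thinned to 500 UMIs, 84.7% thinned to 2000 UMIs, 79.7% without thinning in the same cells, 71.1% without thinning and with the shallower cells put back, and 46.5% with the mixed cluster. The Clec7a-/- share, 29.2%, was 9.68% thinned to 500 UMIs, 82.9% thinned to 2000 UMIs, 43.5% without thinning in the same cells and 23.1% with the mixed cluster. Thinning to 500 or 2000 UMIs also changed which cells were deep enough to count. Of all genes 1.84% were 2-fold lower in Clec7a-/- neutrophil-like cells, and 5.61% with a minimum of 20 UMIs and 0.783% with a pseudocount of 5 UMIs. No paired analysis was possible because each genotype had 1 library, and no replicate could be left out. Camp and Ltf, with 1 and 15 UMIs in Clec7a-/- neutrophil-like cells, are limited by depth.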
